A study of Mus musculus with 14 samples.

Results

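The neuronal microtubule and growth cone genes Mapt, Map2, Map1b, Dcx, Dclk1, Tubb3, Stmn2 and Gap43 were followed through single-cell RNA-seq of the Atoh1 lineage of the mouse hindbrain. They were taken by name, and each of the 8 was found on 1 row among 31054 genes of the count tables. The 14 libraries were made from C57BL/6J mice with the 10x 3′ v3.1 kit after sorting of TdTom+ cells. Controls were Atoh1 Cre/+; Rosa lsl-tdTomato/+ and mutants were Atoh1 Cre/S193A; Rosa lsl-tdTomato/+, called Atoh1 S193A/- here, with the serine-to-alanine allele known as hypomorphic. In all animals Cre replaced the coding region of 1 Atoh1 copy, so controls also carried 1 null allele. TdTom marks cells in which Atoh1-driven Cre was active at some time, and the sorted cells also held classes such as microglia-like cells at P5. Whole hindbrains were taken at E14.5 and E18.5 from 3 control and 3 mutant embryos each, 1 embryo a library and every mutant with a control littermate, which share a replicate number. The paper lists controls 1 to 3 as female, male and female at E14.5 and as male, male and female at E18.5. Mutants had the sex of their littermate, except E14.5 mutant 1, which was male. The P5 pools were of mixed sex, and sex was no term in the tests. The pontine nuclei (PN) were microdissected at P5 from pooled control pups in 2 libraries, with no mutant.

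Microtubules are polymers of alpha and beta tubulin that fill the axon and dendrites of a neuron, and microtubule-associated proteins stabilize, bundle and space them. Tau (Mapt) is the classical axonal protein of this kind, Map2 the dendritic one and Map1b the one that dominates in growing axons. Doublecortin (Dcx) and doublecortin-like kinase (Dclk1) bind the microtubule lattice in migrating neurons, Tubb3 is the neuron-specific beta tubulin, Stmn2 binds tubulin dimers in growing axons, and Gap43 is a membrane protein of the growth cone. PN neurons leave the caudal rhombic lip, migrate tangentially to the ventral pons and send mossy fibres to the cerebellum, whereas granule cells arise at the upper rhombic lip, divide in the external granule layer and extend parallel fibres.

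In the GRCm38 assembly (GENCODE M21) the members were protein-coding genes on 7 chromosomes, since Dclk1 and Stmn2 share chromosome 3. Mapt lies at chr11:104231390-104332090 (+), Map2 at chr1:66175273-66442583 (+), Map1b at chr13:99421446-99516540 (-), Dcx at chrX:143855842-143933311 (-), Dclk1 at chr3:55242364-55539068 (+), Tubb3 at chr8:123411424-123422015 (+), Stmn2 at chr3:8509360-8561606 (+) and Gap43 at chr16:42248442-42340651 (-). The counts sum reads near the 3′ ends of all transcripts of a gene, so isoforms such as the long and short forms of Map2 and Dclk1 were not separated. RefSeq promoter windows (GRCm38.p6) were matched for 5 of the 8, with 7 windows in all and none matched for Mapt, Stmn2 and Gap43. The windows of Map1b and of the upstream start of Dclk1 lay wholly outside the annotated genes. They are shown because Dclk1 had the highest level in cycling progenitors relative to differentiated neurons in PN-like cells at E14.5 and granule-like cells at E18.5, whereas Map1b stood well under its neuronal level there. Each has 250 bases, 5′ to 3′ on the gene's strand and ending 1 base before the start. Capitals mark the E-box CANNTG, the general motif of bHLH factors such as Atoh1, and the TATAA box, searched on both strands.

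Map1b, chr13:99516603-99516852 (-): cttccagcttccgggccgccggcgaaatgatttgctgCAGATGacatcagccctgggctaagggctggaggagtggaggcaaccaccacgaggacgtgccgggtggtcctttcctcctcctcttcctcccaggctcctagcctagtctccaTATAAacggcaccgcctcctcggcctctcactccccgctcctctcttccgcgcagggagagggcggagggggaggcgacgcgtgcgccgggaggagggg

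Dclk1, chr3:55242114-55242363 (+): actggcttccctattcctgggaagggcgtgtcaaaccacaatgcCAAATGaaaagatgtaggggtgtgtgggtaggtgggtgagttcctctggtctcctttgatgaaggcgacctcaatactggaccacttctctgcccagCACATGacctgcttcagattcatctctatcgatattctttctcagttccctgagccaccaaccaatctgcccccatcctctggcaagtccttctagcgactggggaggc

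The Map1b window held 1 E-box, CAGATG at base -213, and 1 TATAA at base -99, and the Dclk1 window held 2 E-boxes, at bases -206 and -109, and no TATAA. Of 32851 windows of this length in the table, 66.2% held CANNTG, 14.4% CAGATG and 22.8% TATAA, so these letters are common in such windows. The windows of Dcx, Map2 and Tubb3 held no E-box. A match is a string of letters and was not tested as a binding site.

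The tables held 150188 barcodes, of which 80250 were kept as cells, with 108239001 to 236964126 UMIs a library and a library median of 12010.5 to 20922 UMIs per kept cell. Library medians of mitochondrial UMIs were 3.25% to 5.09%, near the limit of 5%. At E14.5, 3248 of 7972, 6352 of 10407 and 6568 of 12869 barcodes were kept in controls 1 to 3. In mutants these were 4773 of 9672, 6913 of 9000 and 6571 of 10812, a higher share in every pair. Tests within states were not rerun at a 10% limit. At most 0.624% of the smaller library's barcodes recurred in another library. A UMI of Mapt was seen in 77.0% of kept cells and a UMI of Map1b in 99.0%, with the other members between these values. At E14.5, both libraries of the litter numbered 2 stood apart: they formed subclusters of their own and held 35 (control) and 4 (mutant) differentiated PN-like cells, against 118 to 318 in the other 4 libraries. Sums of fewer than 10 cells were not used. Genotype values at E14.5 are also given without this litter for the members called with the pairs as a block.

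Levels are given as CPM, the UMIs of a gene per 1000000 UMIs of all genes in the summed cells. In whole libraries the levels of Tubb3 were 2705, 3521 and 2717 CPM in the E14.5 controls, 1068, 1031 and 1295 CPM in the E18.5 controls and 1852 and 2269 CPM in the P5 controls. Stmn2 stood at 2849, 3219 and 3496 CPM at E14.5, at 2280, 2313 and 2739 CPM at E18.5 and at 5542 and 5952 CPM at P5. For both genes the E14.5 and E18.5 controls did not overlap. Both fell from E14.5 to E18.5, by -1.48 ± 0.15 (SE) for Tubb3 and -0.47 ± 0.13 for Stmn2 on the log2 scale, in edgeR's quasi-likelihood test of 3 against 3 libraries, where 51.6% of genes were called and 25.1% called lower. Stmn2 lost its call without E14.5 control 3 (-0.37), E18.5 control 1 (-0.40) or E18.5 control 2 (-0.44), whereas Mapt and Gap43 were called lower without E14.5 control 1 (-0.69 and -0.45) or E18.5 control 3 (-0.71 and -0.45). Dclk1 lay between 203 and 310 CPM in all 14 libraries. In bulk sums of this kind, fewer cells of a type and less RNA per cell cannot be told apart, and the P5 tissue was also another dissection. The cell make-up of whole libraries differed between E14.5 and E18.5, as given with the genotype by stage test below. So did the Cell Ranger version of E14.5 control 1 and 2, as given with the E14.5 genotype test.

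**Figure D1:**
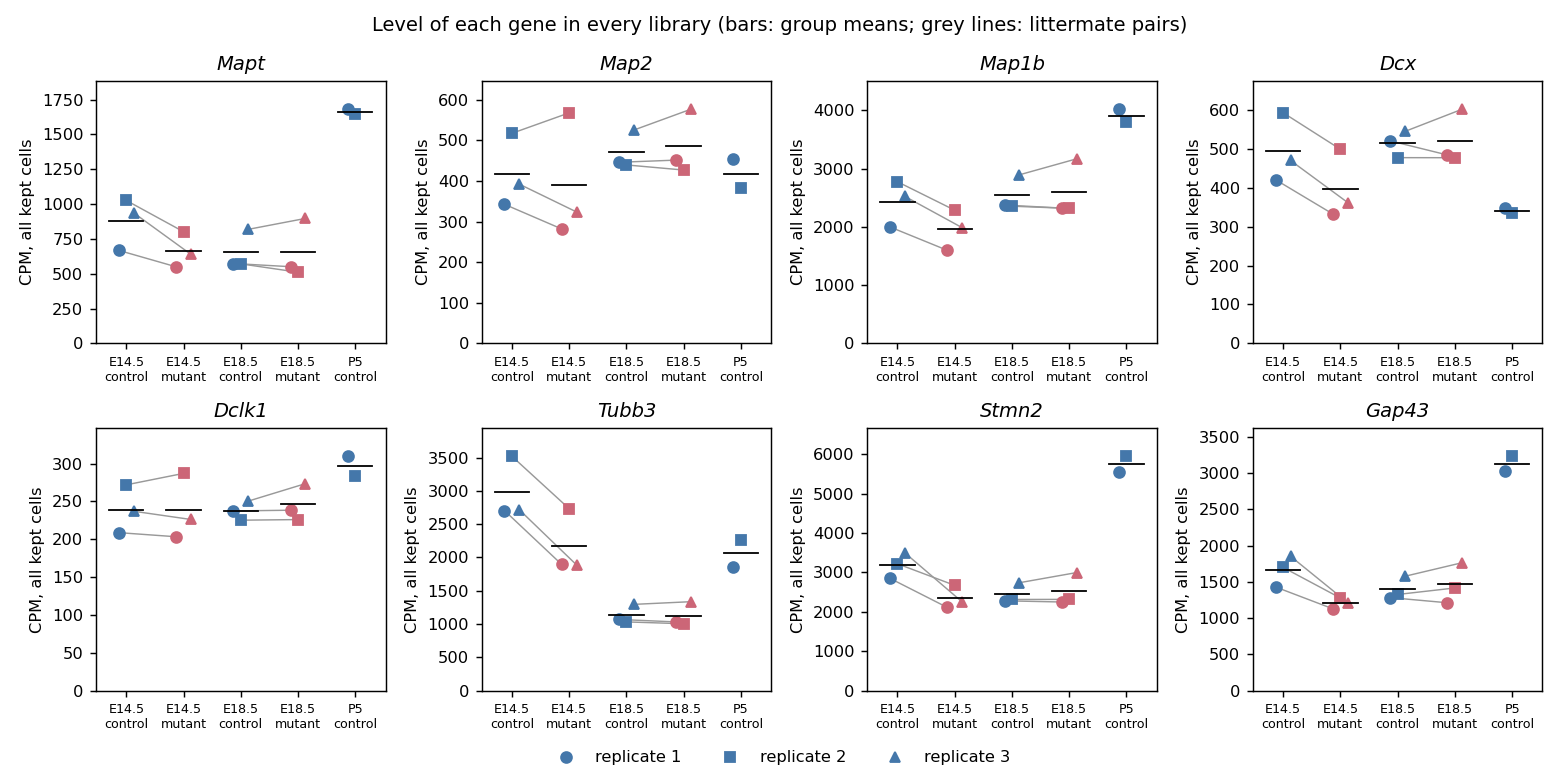
CPM of each of the 8 genes over all kept cells (y axis, from 0) in every library, by stage and genotype (x axis). Points are libraries with the replicate number as symbol, bars are group means and grey lines join littermates. At E14.5 the mutant lies below its littermate in 3 of 3 pairs for Mapt, Map1b, Dcx, Tubb3, Stmn2 and Gap43, and at E18.5 the lines are nearly flat. The share of all genes with such a pattern was not counted.

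To place the genes along differentiation, cells were clustered without the members, without the other microtubule and growth cone genes listed and without sex-linked and mitochondrial genes. Clusters that passed limits for both Pax6 and Barhl1 were taken as PN-like with Hoxb2 to Hoxb5 and low Lhx2, and as granule-like below the Hoxb limit and with Reln, leaving out unipolar brush cell-like clusters. Within each lineage, subclusters were named cycling progenitor, intermediate progenitor, migrating neuron or differentiated neuron by lists of markers that hold none of the 8 members. These names are rebuilt and can differ from those of the study, and levels across them are given as description.

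In control PN-like cells at E14.5, Dcx stood nearest to its neuronal level in intermediate progenitors, while Dclk1 was nearest in cycling progenitors (the plot of levels along differentiation). In intermediate progenitors, which express Atoh1 and Notch pathway genes, Dcx stood at 62.0% ± 16 (SD, n = 3) of its level in differentiated neurons, Map2 at 41.2% ± 4.1, Tubb3 at 37.6% ± 6.1, Dclk1 at 31.4% ± 4.4 and Map1b at 30.2% ± 8.0. Stmn2 and Gap43 were at 13.7% ± 2.4 and 12.1% ± 4.8, and Mapt at 2.28% ± 0.71. The libraries of Dcx lay above those of Map2, whereas Map2, Tubb3, Dclk1 and Map1b overlapped with their neighbours in this order, as did Stmn2 and Gap43. Mapt lay below the others in every library.

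In migrating PN-like neurons, which express Nhlh1 and Robo3, Map2 (114% ± 8.7), Dcx (102% ± 8.9) and Tubb3 (99.0% ± 6.4) were at or near the level of differentiated neurons. Stmn2 was at 83.6% ± 5.0, Map1b at 78.2% ± 13, Dclk1 at 74.5% ± 11 and Gap43 at 59.5% ± 12. Mapt was again the lowest, at 40.2% ± 3.3. In CPM, Mapt stood at 13.2, 24.9 and 40.6 in the cycling progenitors of the 3 controls, at 28.5, 27.5 and 48.0 in intermediate progenitors, at 568, 576 and 681 in migrating neurons and at 1461, 1528 and 1551 in differentiated neurons. The last 2 states did not overlap with each other or with the progenitors.

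The granule-like cells of E18.5 controls also had Mapt last among the members in migrating neurons, whereas Gap43 was first in the main clusters. With finer clusters (resolution 2.0) migrating Gap43 stood lower, close to its differentiated level, as given in the last section. Its first place is thus given for the main clusters only. In migrating neurons Gap43 stood at 122% ± 1.9 of its differentiated level, above Tubb3 (104% ± 6.9), Map2 (82.7% ± 3.4), Dcx (76.6% ± 0.61), Stmn2 (70.3% ± 2.2), Dclk1 (64.3% ± 2.7) and Map1b (52.7% ± 3.4). Mapt was last, at 39.4% ± 2.3. Intermediate progenitors held 1.85% ± 0.51 of the differentiated Mapt level, and 8.13% ± 0.61 of that of Tubb3, which in PN-like intermediate progenitors of the same age was at 76.8% ± 16 (n = 2). After each cell was thinned to 5000 UMIs, Gap43 was at 118.6% and Dcx at 77.8% in migrating granule-like neurons. The other stage of each lineage gave other values for Gap43, at 80.9% ± 5.4 in migrating granule-like neurons at E14.5 and at 43.5% ± 2.6 in migrating PN-like neurons at E18.5. In the latter Gap43 was the lowest of the 8, below Mapt at 57.7% ± 2.1, and in the former Mapt was the lowest, at 35.9% ± 6.0.

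**Figure D2:**
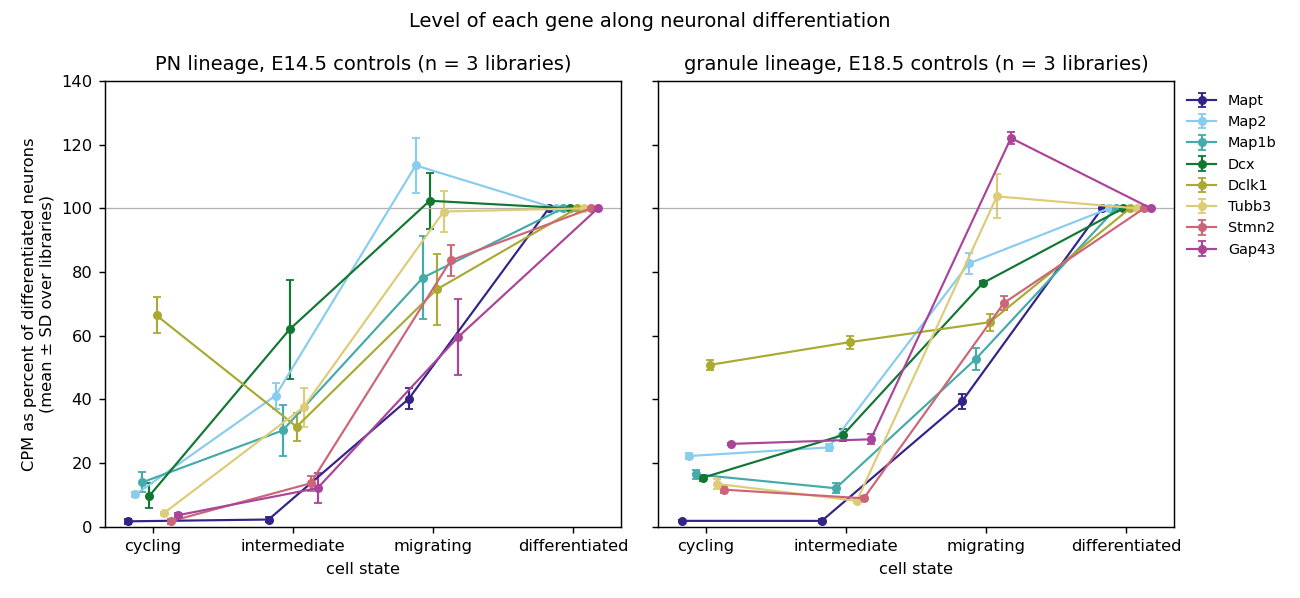
Level of each gene in 4 cell states (x axis) as a percentage of its level in differentiated neurons of the same library (y axis, CPM ratio, mean ± SD of 3 control libraries), for the PN lineage at E14.5 (left) and the granule lineage at E18.5 (right). Mapt is lowest in migrating neurons of both panels, Dclk1 is the only line above 50% in cycling progenitors, and Gap43 stands at 59.5% in migrating PN neurons at E14.5 and at 122% in migrating granule neurons at E18.5. With finer clusters the last value was lower, close to the differentiated level.

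Cycling progenitors differed between the 2 lineages as named here. In E14.5 controls, Gap43 stood at 33.4, 53.5 and 60.9 CPM in PN-like and at 561, 690 and 644 CPM in granule-like cycling progenitors, and Stmn2 at 56.4, 72.4 and 139 against 660, 917 and 782 CPM. The 2 lineages did not overlap for either gene. The E14.5 PN-like cluster led by Ccnd1, Fgf15 and Id3 held 48.9 CPM of Barhl1, just over the limit of 45 CPM. The other PN-like clusters held 600 to 1081 CPM and the granule-like clusters 280 to 331 CPM. The cycling classes may thus be unlike in more than lineage, which was not tested. Mapt was low in both, at 26.3 ± 14 and 34.5 ± 16 CPM. In choroid plexus-like cells of the same 3 libraries, a non-neuronal type led by Ttr, Gap43 ranged from 119 to 272 CPM, Stmn2 from 209 to 430 CPM and Mapt from 52.3 to 138 CPM. These ranges rest on 19, 47 and 62 cells in controls 1 to 3. The PN-like progenitor levels of Gap43, Stmn2 and Mapt were below those of these cells, which should lack the genes, and no expression is read from them, while the granule-like levels of Gap43 and Stmn2 were above them. As other cells of the same libraries lay below the ranges, they are no measured background and serve only as a cautious mark. In E18.5 control cycling granule-like progenitors Gap43 stood at 551 ± 15 CPM and Stmn2 at 637 ± 38 CPM (n = 3).

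Dclk1 UMIs were also held by dividing progenitors and glia. Dclk1 stood at 66.4% ± 5.7 of its differentiated level in cycling PN-like progenitors at E14.5 and at 50.8% ± 1.6 in cycling granule-like progenitors at E18.5, with a dip to 31.4% in PN-like intermediate progenitors. In CPM, the 3 controls at E14.5 held 155, 223 and 159 in cycling, 74.1, 92.4 and 84.2 in intermediate and 259, 316 and 231 in differentiated PN-like cells. These states did not overlap. Choroid plexus-like cells of the same libraries held 87.0 to 118 CPM of Dclk1, below the cycling and differentiated levels and overlapping those of intermediate progenitors, from which no expression is read. At P5, astrocyte-like cells held 1440 ± 123 CPM of Dclk1 (n = 2 libraries), against 301 ± 11 CPM in differentiated PN-like neurons, 95.2 ± 43 CPM in oligodendrocyte-lineage cells and 26.2 ± 19 CPM in microglia-like cells. Thinned to 5000 UMIs, 98.7% of the astrocyte-like and 10.5% of the microglia-like cells had a Dclk1 UMI (96.2% and 21.0% of all cells unthinned, at library median depths of 11027.5 and 10656.5 UMIs). The thinned shares leave out 91 of 594 and 108 of 937 cells, those with fewer than 5000 UMIs. A Mapt UMI was seen in 44.6% and 33.1% of the same thinned cells, and no expression is read from these shares.

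Levels also varied among subclusters of differentiated neurons. For Gap43, the highest level was 2.55 times the lowest over 3 PN-like subclusters at E14.5, from 766 ± 192 to 1950 ± 135 CPM. It was 2.59 times the lowest over 9 PN-like subclusters at E18.5, from 1137 ± 122 to 2947 ± 443 CPM. Over 4 granule-like subclusters at E18.5 it was 2.29 times the lowest, from 1274 ± 267 to 2921 ± 30 CPM. The ratio was 1.06 over 2 granule-like subclusters at E14.5 and 1.42 over 13 PN-like subclusters at P5. At P5, over 13 differentiated PN-like subclusters with at least 2 control libraries, the ratio of the highest to the lowest level was 2.26 for Dcx, from 244 ± 24 CPM in the one led by Hoxc4, Bdnf and Nefl to 553 ± 4.4 CPM in the one led by Irx2, Bcl11a and Fibin, and 1.15 for Mapt. These are ranges over clusters and carry no test.

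To ask whether partial loss of Atoh1 function changed these genes, mutants were compared with controls by edgeR's quasi-likelihood test over all genes. A gene was called at a Benjamini-Hochberg adjusted p under 0.05 and an absolute log2 change over 0.25. At E14.5, 6 members were lower in all 3 mutants than in their littermates. The shares of all genes that were lower in all 3 or whose groups did not overlap were not counted, so these are descriptions. Tubb3 stood at 1895, 2733 and 1887 CPM in mutants 1 to 3, against 2705, 3521 and 2717 CPM in controls. Stmn2 stood at 2111, 2672 and 2251 against 2849, 3219 and 3496 CPM, and Gap43 at 1127, 1277 and 1211 against 1428, 1698 and 1852 CPM, and for Stmn2 and Gap43 the groups did not overlap, whereas those of Tubb3 did. Mapt stood at 550, 802 and 639 against 668, 1026 and 937 CPM.

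Without the pairs, none of the 8 was called at E14.5 by edgeR, which called 1 of 10240 genes (0.00977%), and 3 of 8 had an unadjusted p under 0.05. DESeq2 called 2 members and 249 genes in all. With the litter as a block, 6 of 8 fell. The log2 changes were -0.50 ± 0.05 (SE) for Tubb3 (adjusted p = 0.0046), -0.48 ± 0.07 for Gap43 (0.0085), -0.47 ± 0.07 for Stmn2 (0.0098), -0.42 ± 0.07 for Mapt (0.012), -0.35 ± 0.05 for Dcx (0.0086) and -0.34 ± 0.05 for Map1b (0.0074), all with 3 against 3 libraries in edgeR. Map2 (-0.17 ± 0.08) and Dclk1 (-0.04 ± 0.05) were not called. In the blocked fit 17.6% of 10240 genes were called and 7.25% were called lower. Without the litter numbered 2, the unblocked changes were -0.54 for Tubb3, -0.56 for Stmn2, -0.51 for Gap43, -0.45 for Mapt, -0.38 for Dcx and -0.35 for Map1b, with none called. The file headers of E14.5 control 1 and 2 name Cell Ranger 3.1.0, and those of control 3 and the mutants 5.0.1. Version and genotype therefore cannot be told apart in the pairs numbered 1 and 2. This also holds for the E14.5 tests within states below. The E18.5 headers all name 5.0.1, so version also differs in the genotype by stage test and between the controls of the stages. In the E14.5 pair numbered 1 the sexes differed as well, and Dcx lies on the X chromosome. The part of sex was not tested.

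Of the other microtubule and growth cone genes, 105 were tested in the blocked fit, of which 33 fell and 3 rose. The median log2 change was -0.16 over these genes, -0.39 over the 8 members and 0.00 over all genes. Of 9 tubulin subunits tested, 5 fell and 0 rose, and of 23 growth cone genes, 10 fell and 0 rose. All 3 neurofilament and internexin genes tested fell, as did 3 of 4 of the doublecortin family and stathmins. Of 23 dynein, kinesin and severing genes, 4 fell and 3 rose. Falls without a rise were also seen in 4 of 21 microtubule-associated and plus-end proteins, 2 of 12 tubulin-modifying enzymes and 2 of 10 kinases of microtubule proteins. Among called genes whose libraries did not overlap, the largest falls were those of Tubb2a (-0.52 ± 0.05, from 1054 to 749 CPM), Stmn3 (-0.51 ± 0.06, from 1276 to 914 CPM) and Tubb2b (-0.50 ± 0.05, from 5362 to 3857 CPM). Tubb2a and Tubb2b are beta tubulins and Stmn3 is a stathmin. The kinesin Kif21a was the only rise under this rule (0.29 ± 0.05, from 193 to 240 CPM). The lists were drawn up with results of these data known.

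Cell make-up differed beside these values. Cycling cells made up 29.7% ± 2.4 of PN-like cells in E14.5 mutants against 8.41% ± 3.0 in controls (n = 3 each), and migrating neurons 40.9% ± 10 against 58.9% ± 11. The choroid plexus and roof plate class held 445, 674 and 735 of 4773, 6913 and 6571 kept cells in mutants and 133, 210 and 201 of 3248, 6352 and 6568 in controls. The part of these shares in the whole-library difference was not tested, and each state was also compared on its own. In migrating PN-like neurons the 8 members differed by at most 0.13 on the log2 scale, with none called with or without the block (0.0727% of genes called with it). In differentiated PN-like neurons, 3 controls against 2 mutants, the changes ran from -0.30 to 0.00 without and from -0.16 to 0.13 with the block, with none called (0.643% with the block). Migrating and differentiated granule-like neurons, also 3 controls against 2 mutants, had none called, with unblocked changes from -0.32 to 0.06 (0.313% and 0.0307% of genes called with the block).

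Over all 8 lineage and state classes at E14.5, 0 of 64 member tests were called by edgeR without the block (0.0652% of genes in PN-like intermediate progenitors, 0.00992% in PN-like cycling progenitors, 0.0104% in migrating granule-like neurons and 0 in the other 5 classes), 8 had an unadjusted p under 0.05, and DESeq2 called 2. With the block 8 were called, all lower and all in progenitors (the plot of genotype differences by state). Every progenitor class had 3 against 3 libraries. Among neurons only the migrating PN-like class did, so progenitors and neurons were not tested on equal terms. In granule-like cycling progenitors Gap43 stood at 314, 319 and 371 CPM in mutants against 561, 690 and 644 CPM in controls, and Stmn2 at 461, 426 and 522 against 660, 917 and 782 CPM. These groups did not overlap. Both groups of Gap43 lay above the 119 to 272 CPM of choroid plexus-like control cells, whereas for Stmn2 the controls lay above their 209 to 430 CPM and the lowest mutant (426 CPM) did not. The Stmn2 values of the mutants lay above the 52.1 to 135 CPM of choroid plexus-like cells of mutants. The blocked log2 changes were -0.93 ± 0.08 for Gap43 (edgeR adjusted p = 0.0042, 3 against 3), -0.75 ± 0.11 for Stmn2 (0.033), -0.54 ± 0.07 for Dcx (0.022) and -0.40 ± 0.06 for Tubb3 (0.033), against 0.925% of 10267 genes called and 0.458% called lower. The groups of Dcx and Tubb3 overlapped, and Dcx (54.7 to 99.8 CPM in controls, 38.6 to 74.1 CPM in mutants) also overlapped its 30.8 to 72.4 CPM in choroid plexus-like control cells, against 11.7 to 23.7 CPM in those of mutants. Without the litter numbered 2, the unblocked changes were -0.82 for Gap43, -0.56 for Stmn2, -0.57 for Dcx and -0.38 for Tubb3, with none called.

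In PN-like cycling progenitors Tubb3 (-0.59 ± 0.09, edgeR adjusted p = 0.0023) and Stmn2 (-0.55 ± 0.13, 0.047) fell under the block, where 0.943% of 10077 genes were called and 0.486% called lower. In PN-like intermediate progenitors Gap43 fell (-0.42 ± 0.07, edgeR adjusted p = 0.0072, 2.35% of genes called and 1.26% called lower), and in granule-like intermediate progenitors Tubb3 fell (-0.64 ± 0.12, edgeR adjusted p = 0.046, 0.515% of genes called and 0.182% called lower). For these 4 the mutant and control libraries overlapped. Without the litter numbered 2, the unblocked changes were -0.62 for Tubb3 and -0.68 for Stmn2 in PN-like cycling, -0.40 for Gap43 in PN-like intermediate and -0.54 for Tubb3 in granule-like intermediate progenitors, with none called. Beside these values, choroid plexus-like cells, which should lack the genes, also held fewer of their UMIs in mutants. They were 19, 47 and 62 cells in controls and 48, 152 and 363 in mutants. There Stmn2 ranged from 209 to 430 CPM in controls and from 52.1 to 135 CPM in mutants, Gap43 from 119 to 272 and from 24.9 to 85.0 CPM, and Tubb3 from 166 to 432 and from 41.3 to 103 CPM, without overlap. In control PN-like cycling progenitors Stmn2 (56.4 to 139 CPM) lay below the choroid plexus-like range and Tubb3 (169 to 267 CPM) within it, and Gap43 in PN-like intermediate progenitors (102 to 204 CPM) overlapped it. The part of RNA from other cells in the progenitor differences was not tested. The fullest cluster also differed by genotype in these classes. Among 4 clusters of cycling PN-like cells it was led by Top2a, Ube2c and Cenpf in controls (36.3% of cells) and by Id3, Ccnd1 and Id1 in mutants (34.6%). In PN-like intermediate progenitors it was led by Hsd11b2, Gm17322 and Mfap4 in controls (30.5%) and by S100a6, Eln and Nkd1 in mutants (35.8%). In granule-like intermediate progenitors it was led by Sfrp1, Pdzrn3 and Mfap4 in controls (44.5%) and by G0s2, Fst and Thsd7b in mutants (41.2%), and in granule-like cycling cells by Top2a, Nusap1 and Hist1h1b (19.1%) and by Ube2c, Top2a and Nusap1 (19.0%).

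**Figure D3:**
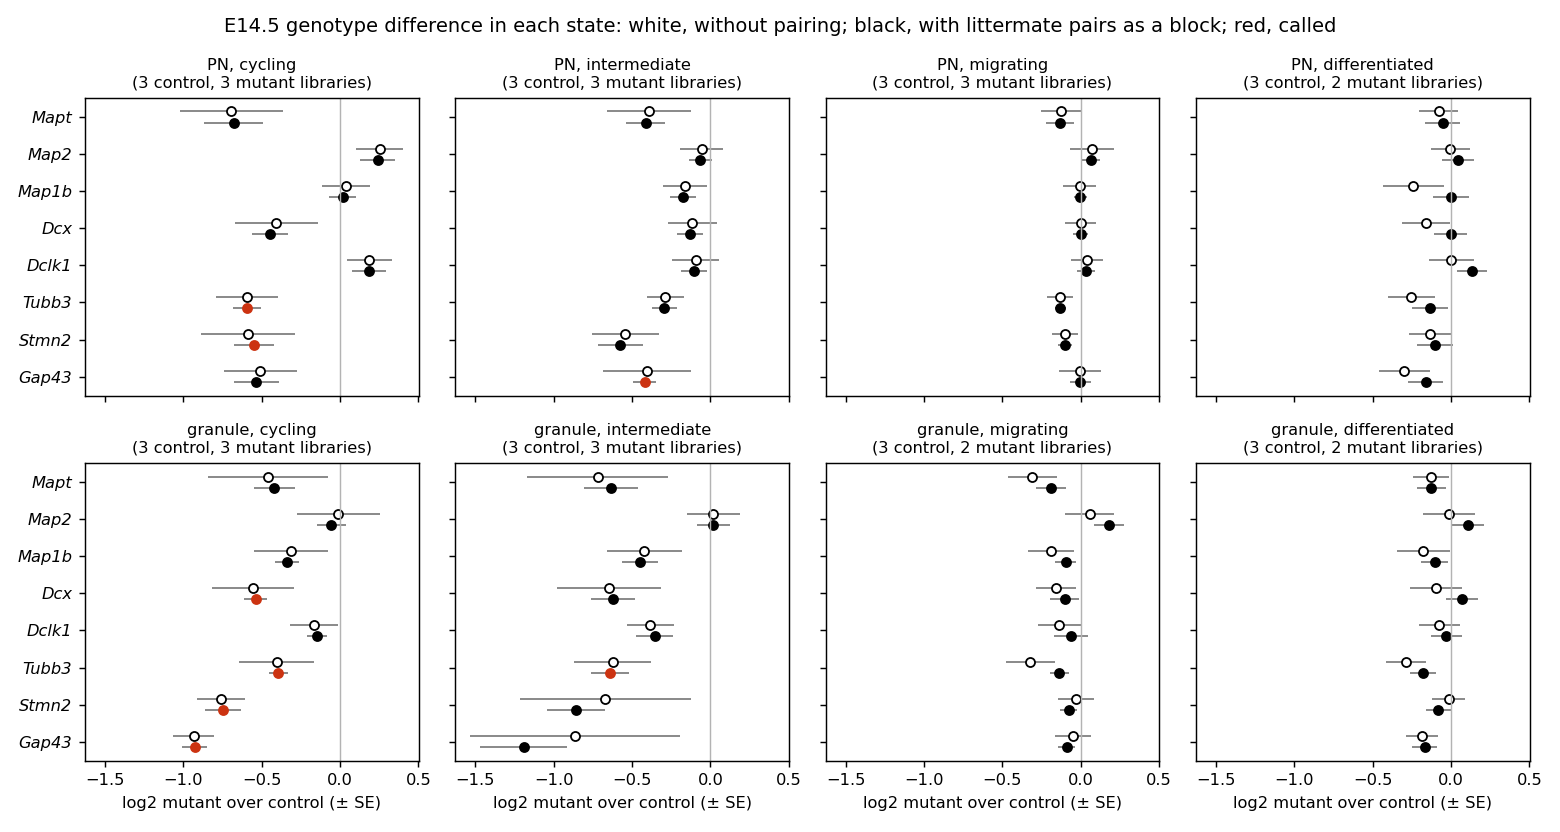
Log2 change of each gene (y axis) in Atoh1 S193A/- over control (x axis, ± SE) within 4 states of the PN (top) and granule (bottom) lineages at E14.5. White points are fits without and black points fits with littermate pairs as a block, and red points are called. The 8 red points, 2 of them Stmn2 and 3 of them Tubb3, all lie below 0 in progenitor states, while no point is called in migrating and differentiated neurons, where unblocked changes reach -0.32. Differentiated neurons and migrating granule neurons rest on 2 mutant libraries, the other panels on 3.

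At E18.5 the members passed the test in no whole-library comparison of the genotypes. In whole libraries every change was within 0.05 of 0 on the log2 scale, with standard errors of 0.09 to 0.25 without and about 0.04 to 0.05 with the block. None of 8 was called by edgeR with or without it, and none had an unadjusted p under 0.05 without it, where edgeR called 0 of 9883 genes without and 0.253% with the block. DESeq2 called 0 members and 13 genes in all. Within the 6 classes tested, 0 of 48 member tests were called, 3 had an unadjusted p under 0.05 and DESeq2 called 0. Of all genes, 0.284% were called in cycling and 0.302% in intermediate granule-like progenitors, 0.130% in differentiated and 0.0104% in migrating PN-like neurons and 0 in the other 2 classes. With the block these shares were 1.38%, 1.97%, 1.27% and 0.0312%, and 0.0876% in migrating and 0.637% in differentiated granule-like neurons. Under it, Dclk1 in granule-like intermediate progenitors was the only call, at 0.28 ± 0.07 (edgeR adjusted p = 0.034, 3 against 3, 1.97% of 9610 genes called), with 218, 198 and 194 CPM in controls against 269, 253 and 237 CPM in mutants. In differentiated PN-like neurons Mapt stood at 2086, 2269 and 2145 CPM in controls and at 2113, 2154 and 2305 CPM in mutants, with the groups overlapping.

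The difference between the genotype effects of the 2 stages was itself tested, in whole libraries. Granule-like cells were 523, 402 and 1250 of 3248, 6352 and 6568 kept cells in E14.5 controls 1 to 3. In E18.5 controls 1 to 3 they were 4129, 3984 and 3335 of 5335, 5108 and 4891 kept cells. The summed cells were thus of unlike make-up at the 2 stages, and the part of this in the differences was not tested. Cell Ranger version differed within the E14.5 pairs numbered 1 and 2 and in no E18.5 pair. It therefore cannot be told apart from a difference between the stages there. Without the block no member was called by edgeR, which called 0 of 10533 genes, and 2 of 8 had an unadjusted p under 0.05. DESeq2 called 0 members and 71 genes in all. With the block, 6 of 8 were called higher, as were 5.94% of genes. The effect at E18.5 was higher than at E14.5 by 0.54 ± 0.09 on the log2 scale for Gap43 (edgeR adjusted p = 0.012), 0.51 ± 0.09 for Stmn2 (0.013), 0.48 ± 0.06 for Tubb3 (0.0064), 0.39 ± 0.10 for Mapt (0.031), 0.37 ± 0.06 for Map1b (0.010) and 0.36 ± 0.07 for Dcx (0.014). Without the litter numbered 2 the unblocked differences of these 6 ran from 0.38 for Map1b to 0.60 for Stmn2, with none called.

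Between E14.5 and E18.5, control cells of the same named state changed in several members, and the direction depended on the gene. Stage cannot be told apart from differences between the sets of libraries, such as the Cell Ranger version of E14.5 control 1 and 2 and the sexes of the embryos. Over 7 classes of neurons and progenitors, 34 of 56 member tests were called, and 6.21% to 53.5% of genes were called in these classes. In differentiated PN-like neurons 53.5% of 10169 genes were called, and in differentiated granule-like neurons 42.2% of 9816. In differentiated PN-like neurons Tubb3 fell from 4528, 5589 and 4688 CPM to 2762, 2759 and 2767 CPM, a log2 change of -0.97 ± 0.11 (edgeR adjusted p = 5.0e-05, 3 against 3). Stmn2 fell (-0.32 ± 0.10), while Gap43 (0.69 ± 0.14), Map2 (0.59 ± 0.10) and Mapt (0.39 ± 0.10) rose. Map1b (0.18 ± 0.16), Dcx (0.28 ± 0.13) and Dclk1 (0.21 ± 0.12) were not called, but without E14.5 control 2, which held 35 of these cells, they were at 0.40, 0.41 and 0.31 and were called. In migrating PN-like neurons 6 members rose, Mapt the most (0.94 ± 0.09), and Tubb3 fell (-0.72 ± 0.08), with 45.2% of 9847 genes called and 23.5% called higher. This class held 7 clusters at E14.5, the fullest led by Robo3, Pcp4 and Nhlh1 (17.9% of control cells), and 3 at E18.5, the fullest led by Gad2, Fbxl7 and Nrgn (50.8%). Without E14.5 control 2 Gap43 was not called there (0.22).

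In the classes named differentiated neuron, Gap43 went in opposite directions in the 2 lineages. In differentiated PN-like neurons it rose from 1111, 1542 and 1392 CPM at E14.5 to 2278, 2420 and 2467 CPM at E18.5. In differentiated granule-like neurons it fell from 5387, 5753 and 5699 to 2051, 2142 and 2155 CPM, a log2 change of -1.54 ± 0.08 (edgeR adjusted p = 5.5e-08, 3 against 3). Neither pair of groups overlapped. The classes held other clusters at each stage. Control granule-like cells of this class lay in 2 clusters at E14.5, the fullest led by Dnm3, Cnr1 and Mapt (53.6%). At E18.5 they lay in 4, the fullest led by Syt4, Pcp4 and Fgf5 (48.2%). The PN-like ones lay in 3 clusters at E14.5, the fullest led by Syt4, Sncb and Kctd12 (41.4%). At E18.5 they lay in 11, the fullest led by Sostdc1, Hs3st4 and Camk4 (20.6%). The granule change minus the PN change, tested in 1 fit with the library as a block, was -2.27 ± 0.09 (edgeR adjusted p = 1.3e-12), where 19.1% of 10517 genes were called. The same test called Tubb3 (-0.45 ± 0.08, adjusted p = 0.00045), Map1b (0.38 ± 0.11, 0.015) and Mapt (-0.28 ± 0.08, 0.013), and did not call Map2, Dcx, Dclk1 and Stmn2. Map1b lost its call without E14.5 control 1 (0.31) or E18.5 control 3 (0.37), and Mapt lost it without any 1 of 5 of the 6 libraries. The E14.5 granule-like neurons rested on 50, 14 and 171 cells in the 3 controls. Over PN-like subclusters Gap43 ran from 766 to 1950 CPM at E14.5 and from 1137 to 2947 CPM at E18.5, so these ranges overlapped. The part of cluster make-up in the stage changes was not tested.

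**Figure D4:**
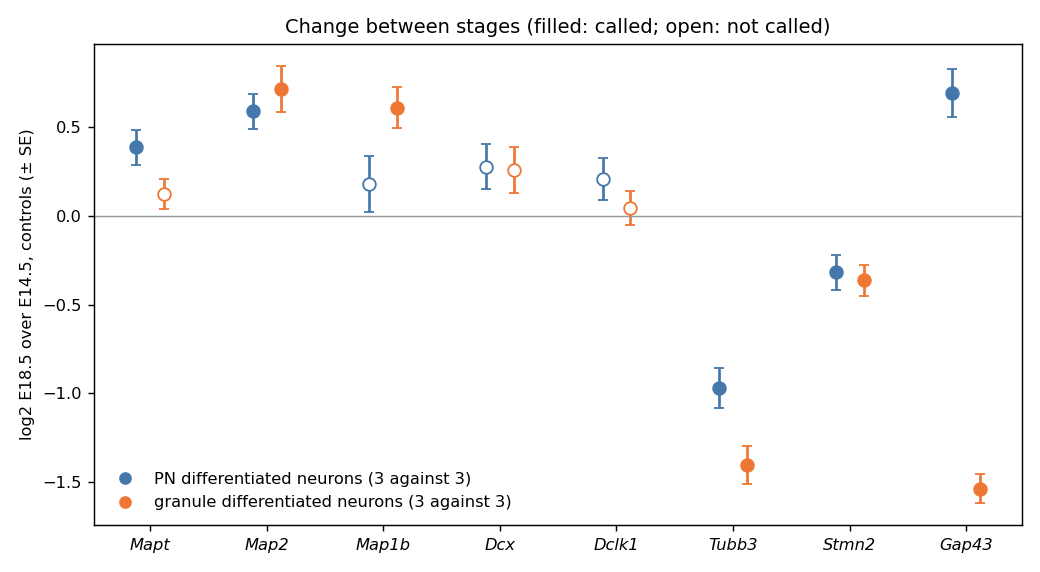
Log2 change from E14.5 to E18.5 (y axis, ± SE) of each gene (x axis) in differentiated neurons of control libraries, for the PN (blue) and granule (orange) lineages, 3 libraries against 3. Filled points are called. Tubb3 and Stmn2 lie below 0 and Map2 above 0 in both lineages, while Gap43 is at 0.69 in PN and at -1.54 in granule neurons.

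Progenitors of the granule lineage also differed between the stages. In intermediate progenitors 5 of 8 members were lower at E18.5, Tubb3 by -2.86 ± 0.16, Mapt by -1.95 ± 0.24, Stmn2 by -1.88 ± 0.28, Gap43 by -1.46 ± 0.30 and Map1b by -0.84 ± 0.15, and Dcx was higher by 0.60 ± 0.16 (33.0% of 9963 genes called, 17.8% lower). Mapt ran from 69.5 to 153 CPM at E14.5, which overlapped the 52.3 to 138 CPM of choroid plexus-like cells of E14.5 controls, and from 21.4 to 35.5 CPM at E18.5, below that range. Tubb3 ran from 749 to 1256 CPM at E14.5 and from 137 to 149 CPM at E18.5, the latter below the 166 to 432 CPM of those cells, and Map1b at E18.5 (611 to 736 CPM) overlapped their 287 to 643 CPM. No expression is read from the levels within or below these ranges. The choroid plexus-like ranges come from E14.5 libraries and none was drawn up at E18.5, so they need not hold for E18.5 levels. Whole-library Tubb3, for one, was at 2705 to 3521 CPM in E14.5 and at 1031 to 1295 CPM in E18.5 controls. The class held other clusters at each stage. At E14.5 the fullest of 3 was led by Sfrp1, Pdzrn3 and Mfap4 (44.5% of control cells), and at E18.5 all cells lay in 1 cluster led by Pmaip1, Hes5 and Thrsp. The intermediate progenitors of E14.5 control 2 were lower in Gap43 (673 CPM) than those of the other controls (1730 and 2352 CPM), and without that library the Gap43 change was -1.81. In cycling granule-like progenitors Tubb3 fell (-1.34 ± 0.18) while Dcx (0.95 ± 0.18) and Map2 (0.46 ± 0.14) rose (38.6% of 10220 genes called). Tubb3 at E18.5 (221 to 261 CPM) lay within the choroid plexus-like range of E14.5 controls, and Dcx at E14.5 (54.7 to 99.8 CPM) overlapped their 30.8 to 72.4 CPM. In PN-like intermediate progenitors, 3 libraries against 2 with 21 and 13 cells, Mapt (1.67 ± 0.32), Dcx (0.67 ± 0.16) and Map1b (0.48 ± 0.14) rose, with 6.21% of 9273 genes called and 3.03% called higher. Mapt ran from 27.5 to 48.0 CPM at E14.5 and stood at 119 and 128 CPM at E18.5, against 52.3 to 138 CPM in the choroid plexus-like cells of E14.5 controls, so no expression is read from these Mapt values. Without E14.5 control 2 the calls of Dcx and Map1b were lost (edgeR adjusted p = 0.069 and 0.12).

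Genes of the same machinery split by class. In differentiated PN-like neurons 11 of 21 microtubule-associated and plus-end proteins rose and 1 fell between the stages, and 11 of 21 dynein, kinesin and severing genes rose and 2 fell, against 27.9% and 25.6% of all genes. Tubulin subunits went the other way, with 5 of 9 lower and 1 higher, and 2 of 3 neurofilament and internexin genes fell. In differentiated granule-like neurons, where 2082 of 9816 genes rose and 2058 fell, 6 of 9 tubulin subunits fell and 2 rose, and 10 of 23 growth cone genes fell and 2 rose. Under the naming rule, Map9, a microtubule-associated protein, rose in both lineages (1.44 ± 0.12 and 0.89 ± 0.13) and so did Map7d2 (1.41 ± 0.15 and 1.94 ± 0.22), a kinesin-linked microtubule protein. Dync1i1, a dynein intermediate chain, rose from 0.365 to 12.1 CPM in PN-like neurons, and Clip1, a plus-end protein, rose in granule-like neurons (1.27 ± 0.16). The falls were led by Dpysl4 (-2.09 ± 0.12), the neurofilament-related Ina (-1.55 ± 0.14) and Tuba1a (-0.95 ± 0.11) in PN-like neurons, and by Rnd2 (-1.90 ± 0.17), Rnd3 (-1.34 ± 0.22) and Nefl (-1.09 ± 0.10) in granule-like neurons.

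From E18.5 to P5, differentiated PN-like neurons of controls lost Dcx and gained Gap43 and Stmn2. Dcx stood at 964, 932 and 929 CPM at E18.5 and at 391 and 375 CPM at P5, a log2 change of -1.23 ± 0.08 (edgeR adjusted p = 3.6e-07, 3 against 2). Map2 fell from 682, 758 and 753 to 477 and 417 CPM (-0.64 ± 0.10), and Map1b fell (-0.35 ± 0.08). Gap43 rose from 2278, 2420 and 2467 to 3589 and 3856 CPM (0.71 ± 0.09) and Stmn2 from 4442, 4551 and 4483 to 6429 and 6886 CPM (0.64 ± 0.08). Mapt (-0.07 ± 0.08), Dclk1 (-0.08 ± 0.08) and Tubb3 (-0.10 ± 0.10) were not called, though in CPM the libraries of the 2 ages did not overlap. The test scales libraries otherwise than plain CPM, and the share of all genes without overlap was not counted, so no fall is read from this. Without P5 control 2, which leaves 1 library at P5 that is assumed to vary like those of E18.5, Tubb3 was called lower (-0.28), and without P5 control 1 it was not called (0.06). Here 60.8% of 11059 genes were called, and age, dissection and pooling of pups cannot be told apart.

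In the same comparison, where 3325 of 11059 genes rose and 3402 fell, 6 of 10 tubulin subunits rose and 1 fell, and 4 of 5 neurofilament and internexin genes rose and 1 fell. The largest rises were Tubb6, from 0.0467 to 7.66 CPM, Nefh, the heavy neurofilament subunit, from 2.13 to 32.4 CPM (3.91 ± 0.20), and Tuba4a, from 10.7 to 106 CPM (3.42 ± 0.16). The largest falls were Agbl5 (-1.03 ± 0.20), a tubulin deglutamylase, Kif21b (-1.02 ± 0.09), a kinesin, and Mtus1 (-0.91 ± 0.12). Microtubule-associated and plus-end proteins were split, with 7 of 23 higher and 8 lower.

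**Figure D5:**
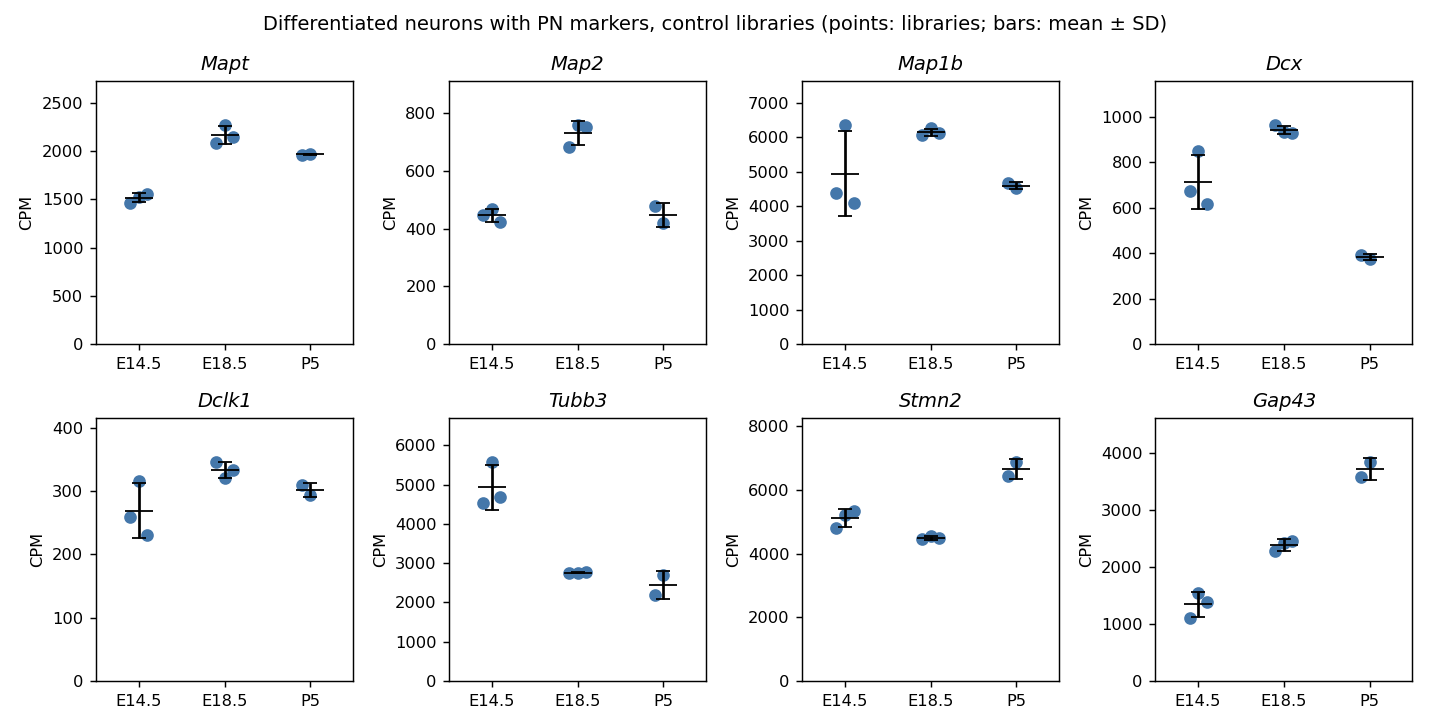
CPM (y axis, from 0) of each gene in differentiated PN-like neurons of control libraries at E14.5, E18.5 and P5 (x axis). Points are libraries, and bars are mean ± SD of 3, 3 and 2 libraries. Gap43 is higher at each later age, Dcx and Map2 are highest at E18.5, and Tubb3 is highest at E14.5.

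Across 87 clusters of all stages, the 28 pairs of members had Pearson correlations of log2 CPM from 0.34 to 0.90, with a median of 0.75, given as description since clusters share libraries. The pair most alike was Stmn2 and Gap43 (0.90). The 7 pairs with Dclk1 included the lowest, 0.34 with Tubb3. Among 14811 genes, the most like each member was Rusc1 for Mapt (0.94), Mapk8ip2 for Map2 (0.91), Rtn1 for Map1b (0.90), Scrt1 for Dcx (0.94), Dclk2 for Dclk1 (0.87), Ina for Tubb3 (0.93), Smim18 for Stmn2 (0.95) and Stmn2 for Gap43 (0.90). Rtn1 was also a marker used to name differentiated neurons. By the mean over the 8 members, Rufy3, Klc1, Kif5c, Actl6b and Crmp1 were closest, at 0.82 to 0.81.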

How the data were processed

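The authors sorted TdTom+ DAPI- cells by FACS, sequenced 10x 3′ libraries and mapped them to a reference of mm10 plus WPRE, part of the reporter. Their methods name Cell Ranger 5.0.1, whereas the headers of the deposited files name 3.1.0 for E14.5 control 1 and 2. The deposited values are raw UMI counts, with no normalization, for all 14 libraries.

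Cells with at least 1000 genes and under 5% mitochondrial UMIs were kept, and the top 7.5% by Scrublet score were removed as doublets, in place of the authors' DoubletFinder. The authors' methods name a limit of 1% mitochondrial UMIs and refer to their code for criteria by sample age. Cells were clustered per stage in scanpy 1.11.5 (2000 variable genes, 30 principal components, 15 neighbors, Leiden resolution 1.0, alternative 2.0) without the members and the listed pathway genes. Lineages were set by CPM limits chosen after the clusters were seen (Hoxb 25, Pax6 50, Barhl1 45, Lhx2 250, Reln 50), and states by marker lists. The members and lists were chosen with earlier results of these data known. Counts were summed per library and class of at least 10 cells, and a gene entered the tests by edgeR when 10% or more of the cells of either group held a UMI of it. edgeR 4.0.16 (quasi-likelihood, TMM) was run in R 4.3.3, with DESeq2 1.42.0 as an alternative. A gene was called at an adjusted p under 0.05 (Benjamini-Hochberg over all genes tested) and an absolute log2 change over 0.25. SE is the log2 change divided by the square root of F. The P5 libraries are pools, whereas each E18.5 library is 1 embryo. The p-values of E18.5 against P5 therefore rest on the spread between single embryos as well as between pools.

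Each mutant shares its number with a littermate control. Deviations of same-numbered libraries from their group means correlated at 0.527, 0.820 and 0.745 at E14.5 (10240 genes) and 0.780, 0.818 and 0.925 at E18.5 (9883 genes), so the litter was used as a block beside the unblocked design.

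Named genes were the 8 members in every comparison and, from the pathway lists, up to 3 called genes with the largest rise and 3 with the largest fall whose libraries did not overlap. Likeness was the Pearson correlation of log2(CPM + 1) over clusters of at least 50 control cells, among genes reaching 10 CPM in a cluster. The scripts were tested on simulated counts. The test of lineage by stage and the omission of the litter numbered 2 were added after the data were seen. The S193A allele is a point change that gene counts cannot show, so the genotype labels could not be checked from them.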

Additional observations from a re-analysis of the deposited data

Results flagged for a closer look

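The test of the difference itself drew attention to 10 results. The E18.5 minus E14.5 difference in the effect of the mutation was tested in whole libraries, whose cell make-up differed between the stages. With litters as a block, it was 0.54 for Gap43, 0.51 for Stmn2, 0.48 for Tubb3, 0.39 for Mapt, 0.37 for Map1b and 0.36 for Dcx on the log2 scale. None was called without the block, and Cell Ranger version differed within the E14.5 pairs numbered 1 and 2 alone. The granule minus PN difference in the change between stages was -2.27 for Gap43, -0.45 for Tubb3, 0.38 for Map1b and -0.28 for Mapt. No group held 4 or more libraries, so no library was tested as an outlier.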

How the results depend on the processing

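Over 216 member comparisons and 2264 values under alternatives, 2157 kept their call, 50 lost it, 57 gained it and 0 reversed, with 204 sign changes between values of which neither was called counted as kept. DESeq2 called 2 members in E14.5 whole libraries, 4 in the control stage comparison (2 in edgeR) and 2 within E14.5 states. With the replicate block, 6 members were called at E14.5, 6 in the genotype by stage test, 8 within E14.5 states and 1 within E18.5 states, and the block changed no other call. A 10% mitochondrial limit and all barcodes each called 4 in the control stage comparison, where leaving out a library gave 1 to 4. For lineage by stage, leaving out a library gave 2 to 4 (4 with all), for the stage change within states 26 to 38 (34 with all) and for E18.5 against P5 5 to 6 (5 with all), which leaves 1 library at P5 where a P5 library is left out. At resolution 2.0, migrating Stmn2 stood at 90.5% of differentiated in the PN lineage. In the granule lineage at E18.5 it gave 75.8% for Dcx, 64.4% for Stmn2 and 102.4% for Gap43, and differentiated over cycling ratios of 6.04 for Dcx, 1.89 for Dclk1 and 3.93 for Gap43. Thinning gave 77.8% for Dcx and 118.6% for Gap43. The cause was not tested.

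Counts over all genes moved more. E14.5 whole libraries gave 1 call, 249 by DESeq2, 1802 with the block, 11 at 10% mitochondrial UMIs, 10 with all barcodes, and 0 without the filter on genes or without the litter numbered 2. The E14.5 libraries of Cell Ranger 5.0.1 hold only 1 control, so counts from them alone are not given. E18.5 gave 0, 13 by DESeq2 and 25 with the block. The stage comparison gave 5306, and 8056 without the filter. The genotype by stage test gave 0, 71 by DESeq2, 1532 with the block, 6 at 10% and 3 without litter 2. Within E14.5 states there were 8, 90 by DESeq2, 561 with the block, 5 at resolution 2.0, 25 without litter 2 and 2 to 42 without a library. Within E18.5 states there were 71, 167 by DESeq2, 523 with the block and 16 to 58 without a library. Few cells limit some sums, such as the 14 differentiated granule-like cells of E14.5 control 2.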
